A study of Danio rerio with 96 samples.

Results

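Scattered CpGs are the low-depth part of a bisulfite amplicon experiment. They are CpGs of the numbered zebrafish chromosomes that lay more than 1 kb from the 8 target amplicons and were covered by 1 to 9 reads in a library. Each CpG cytosine was counted once per library, as the share of its reads called methylated. Strands were not merged, so every count of CpGs here is a count of CpG cytosines on 1 strand. The plus and minus cytosines of 1 CpG therefore count separately. Of the distinct scattered CpG cytosines, 9479 were on the plus strand and 12441 on the minus strand. The rule gave 96889 CpG calls at 21920 distinct CpGs, of 117862 CpG calls at 22620 distinct CpGs in the whole data set. They made up 82.2% of all CpG calls and 0.969% of all CpG reads, because the 50 CpGs inside the amplicons took 88.6% of the reads. The members were chosen by their read counts and their position, so being low in depth and away from the amplicons is not a result. Call counts and depths within the window, given below, follow in part from this rule. The methylation state did not enter the rule.

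Larval heads had been dissected 5 days after fertilisation, and there were 24 libraries in each of 4 groups. The groups were GR mutant larvae with 100 µM betamethasone, GR mutant larvae with 0.2% ethanol (control), wild-type larvae with 100 µM betamethasone and wild-type larvae with 0.2% ethanol (control). GR is the glucocorticoid receptor, the nuclear receptor that binds cortisol, and betamethasone is a synthetic glucocorticoid that binds it. The labels do not give the mutant allele, the length of the exposure, the clutch or the batch, nor whether a library is 1 larva or a pool or whether the betamethasone water held ethanol. Betamethasone-treated wild-type library 2 held 1 scattered CpG and betamethasone-treated GR mutant library 3 held 22, and both were left out of every mean over libraries. The 94 other libraries held 303 to 2428 scattered CpGs (median 942.5) and 70334 to 2009598 reads summed over all cytosines.

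In vertebrates DNA methylation sits almost entirely on the cytosine of CpG pairs, where DNA methyltransferases copy it to the new strand after replication. Most CpGs of a fish genome are methylated, and the CpG-rich promoters of active genes are the main exception. Bisulfite turns unmethylated cytosine into uracil, which is read as T, so a C in a read stands for methylated cytosine or for a base that escaped conversion. Cytosines in CHG and CHH context (H is A, C or T) carry little methylation in most vertebrate tissues. They serve here as the comparison for CpGs of the same depth in the same library, and the source of their level was not tested.

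Scattered CpGs were methylated at an intermediate level, far above the non-CpG cytosines of the same depth. The mean level per library was 59.9% ± 8.00 (SD, n = 94) at CpGs, against 1.60% ± 0.462 at the 221517 CHG calls and 3.61% ± 1.40 at the 606319 CHH calls. The lowest library CpG level, 33.3%, was above the highest CHH level of any library, 8.85%. The 2 libraries with the lowest CpG level were wild-type control 12 at 33.3% and wild-type control 19 at 42.1%. The 2 with the highest level were wild-type control 20 at 77.8% and betamethasone-treated GR mutant 6 at 76.7%, so that the wild-type control group held the widest range. Among non-CpG cytosines those followed by A had the highest levels. CHH cytosines in CA stood at 4.63% ± 1.79, those in CC at 3.44% ± 1.52 and those in CT at 2.49% ± 1.09 (SD, n = 94). In CHG context the levels were 2.60% ± 0.772 for CA, 1.23% ± 1.07 for CC and 1.15% ± 0.505 for CT.

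**Figure D1:**
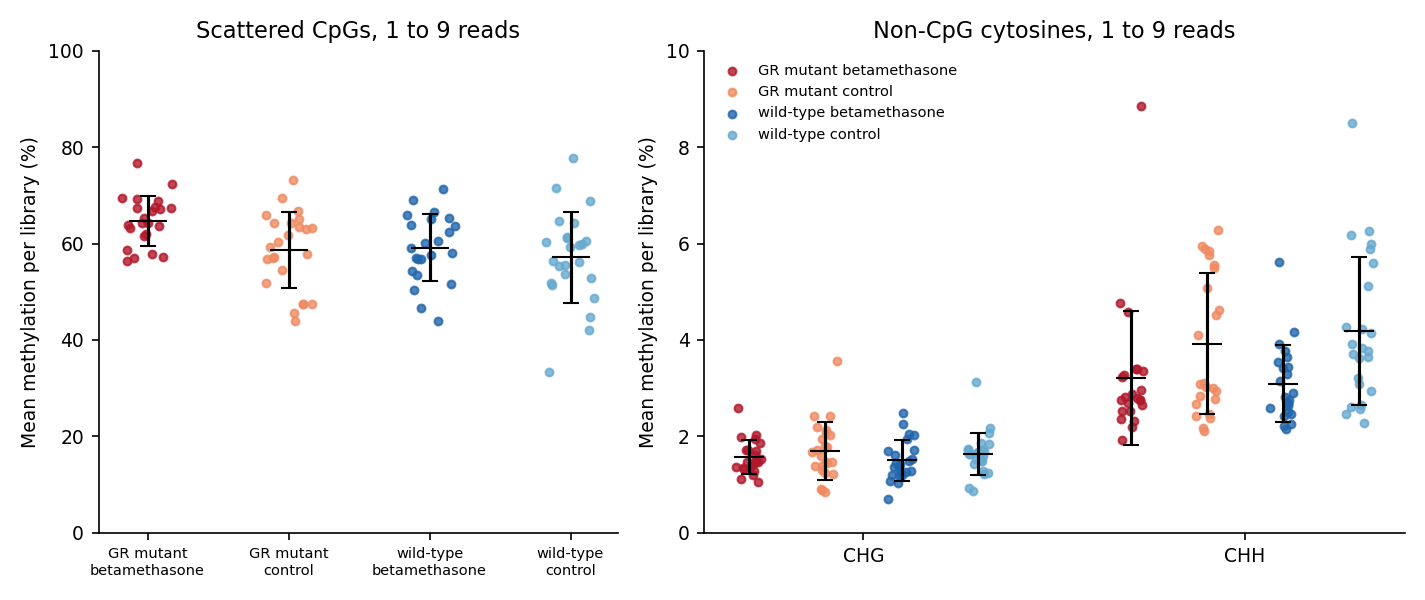
Mean methylation per library (%) of scattered CpGs on the left and of CHG and CHH cytosines of the same depth on the right, which has its own axis from 0 to 10%. Each point is 1 library, and bars give the group mean ± SD. CpG levels lie between 33.3% and 77.8%, and every CHH level is at or below 8.85%.

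The non-CpG level of scattered cytosines was higher than inside the amplicons of the same libraries. It was 3.07% ± 1.10 at scattered cytosines and 1.46% ± 0.435 inside the amplicons (SD, n = 94). The difference was 1.62 percentage points (SE 0.118, higher in 92 of 94 libraries). The two-sided permutation test that flips the sign of library differences gave an adjusted p of 1e-05, the smallest it can give. Scattered cytosines, at 1 to 9 reads, no more than 100 bp apart on 1 strand were joined into runs. Cytosines with 10 or more reads did not enter, so a run can be cut where a stretch is deeper. There were 64990 runs, with a median length of 67 bp. Of these, 5245 runs (8.07%) had a mean non-CpG level above 20% over at least 3 non-CpG cytosines. They held 3.67% of the non-CpG calls and 51.6% of the methylated non-CpG reads. These runs were picked by their own non-CpG level, so that leaving them out had to lower the difference. It is given as a description that scattered minus amplicon non-CpG was -0.00480 percentage points without them. The difference was 4.23 with each run counted once and 2.91 with positions of 10 or more libraries left out (permutation adjusted p = 1e-05 and 1.5e-05). Both changes were made on the scattered side only, and the amplicon level stayed at 1.46%. In the 94 libraries, 5084 of the runs above 20% non-CpG were 40 bp or shorter and 8 were longer than 100 bp.

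The CpG level depended strongly on the length of the run a CpG lay in. In runs of 1 to 20 bp it was 14.2% ± 10.4 (SD, n = 91), below the CHH level of the same runs in the same libraries, 17.7% ± 4.15, and CpGs exceeded CHH in 32 of 91 libraries. In runs of 21 to 40 bp the CpG level was 24.2% ± 7.37 against 16.3% ± 3.39 for CHH (SD, n = 94), and CpGs were higher in 73 of 94 libraries. From 41 to 60 bp on, CpGs exceeded CHH in 94 of 94 libraries. The CpG level was 35.2% ± 9.20 at 41 to 60 bp, 48.5% ± 10.2 at 61 to 80 bp, 51.8% ± 11.1 at 81 to 100 bp, 66.0% ± 7.03 above 100 and up to 120 bp, 71.8% ± 7.35 above 120 and up to 150 bp and 76.0% ± 8.14 above 150 bp (SD, n = 94). CHH was 2.66% ± 2.26 in runs of 41 to 60 bp and 1.43% ± 0.315 above 150 bp. CpG and CHH cytosines were thus furthest apart in the longest runs, and CpGs were on average below CHH in the shortest. These are descriptions of classes chosen after the values were seen, and the cause of the gradient was not tested.

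**Figure D2:**
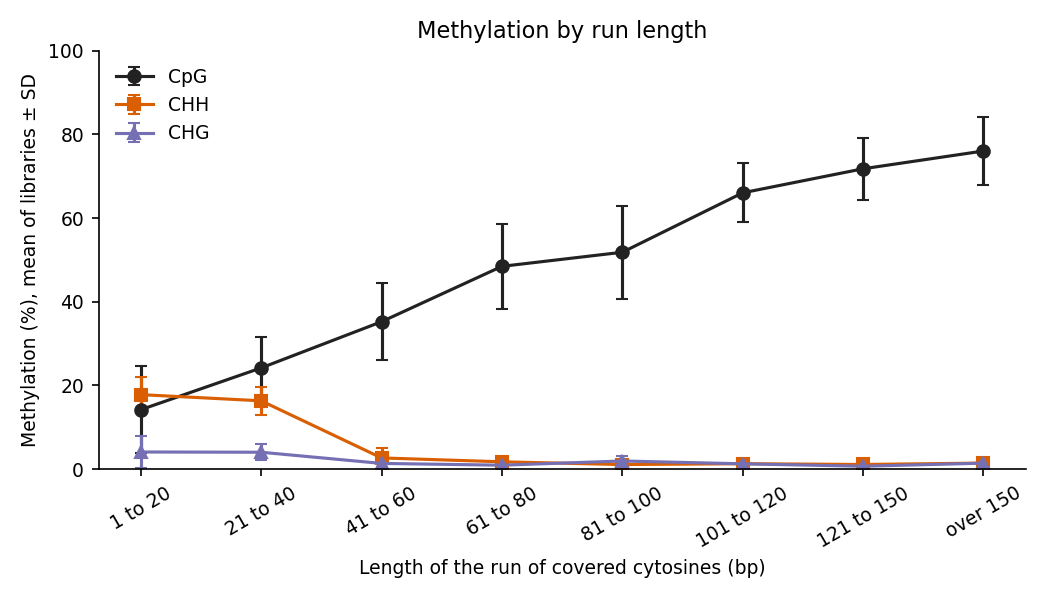
Methylation (%) of CpG, CHH and CHG cytosines at 1 to 9 reads by the length of the run of cytosines at that depth (bp). Points are means of library levels and bars are SDs. The CpG level climbs in each class, to 76.0% above 150 bp, and the CHH level drops from 17.8% in the shortest class to 2.66% at 41 to 60 bp.

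Level also differed with depth inside the window. CpGs with 1 read, 61.2% of the calls, averaged 55.6% ± 8.88 per library, against 66.7% ± 7.87 for CpGs with 2 to 9 reads in the same libraries (SD, n = 94). The difference was -11.1 percentage points (SE 0.744, lower in 87 of 94 libraries, adjusted p = 1e-05 by the sign-flip permutation test, the smallest it can give). With CpGs of 10 or more libraries left out it was -6.41 in 79 libraries (SE 1.57, lower in 50 and higher in 28, permutation adjusted p = 9e-05). The library mean was 65.2% ± 9.44 at 2 reads and 66.9% ± 22.7 at 9 reads, just inside the window, and it was 68.7% ± 25.8 (SD, n = 57) at 10 reads, just outside it. Scattered CpGs as a whole were lower than the CpGs outside the amplicons with 10 or more reads, at 59.5% ± 7.79 against 70.9% ± 12.0 (SD, n = 91 each). That difference was -11.4 percentage points (SE 1.11, lower in 77 of 91 libraries, permutation adjusted p = 1e-05). With scattered CpGs of 10 or more libraries left out it was -23.3 (permutation adjusted p = 1.5e-05). They were left out on the scattered side only, which fell to 47.6%, while the deeper CpGs stayed at 70.9%. The -23.3 is therefore not a like-for-like comparison. CHG levels stayed between 1.10% and 1.66% from 1 to 9 reads, and CHH was highest at 1 read, 4.15% ± 1.58 against 2.88% ± 1.42 at 2 reads. Close to the amplicons there was little to compare, since 7 CpG calls at 1 to 9 reads lay within 1 kb of an amplicon and 3 lay between 1 and 10 kb.

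**Figure D3:**
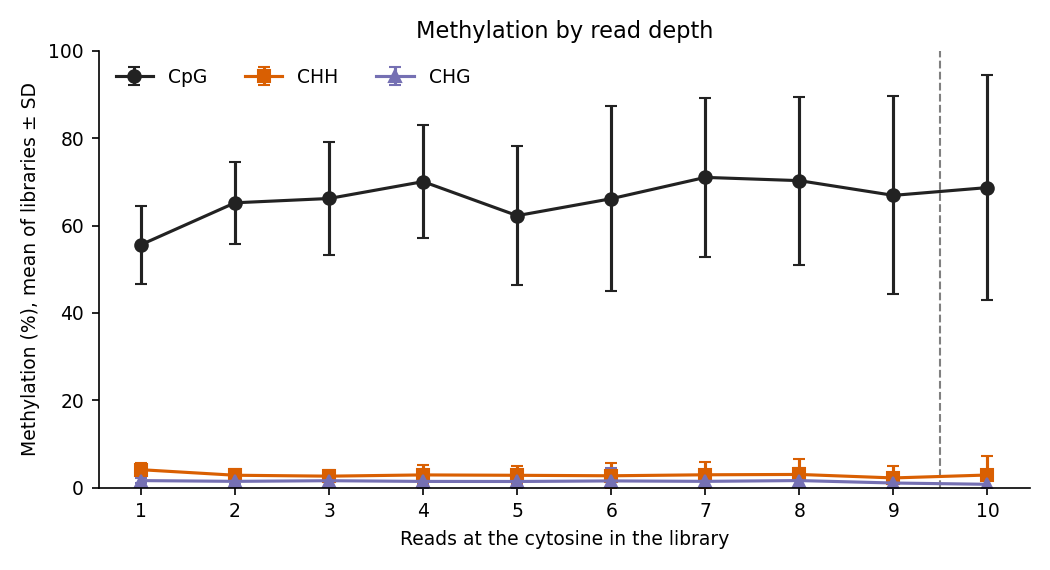
Methylation (%) of CpG, CHH and CHG cytosines by the number of reads at the cytosine, from 1 to 10. Points are means of library levels, bars are SDs (their ends below 0 are not drawn), and the dashed line marks the upper end of the 1 to 9 read window. CpGs stand at 55.6% with 1 read and at 65.2% with 2 reads, and the CpG bars overlap at all read counts shown.

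The CpGs were scattered over the genome, but many of them came back in library after library. Of the 21920 distinct CpGs, 12690 (57.9%) were listed in a single library and gave 13.1% of the calls. At the other end, 825 CpGs (3.76%) were listed at 1 to 9 reads in 30 or more libraries and gave 39.1% of the calls. The 2164 CpGs in 10 or more libraries gave 61.8% of the calls, and 2014 of them (93.1%) appeared in all 4 groups. The level was highest at the CpGs found in the most libraries and lowest at those of a single library, with no steady order between. It was 43.8% ± 14.8 at CpGs of a single library, 50.8% ± 13.4 at 2 to 4 libraries, 48.7% ± 10.7 at 5 to 9, 54.9% ± 6.36 at 10 to 29 and 73.4% ± 4.15 at 30 or more (SD over 94 libraries). Run length moved with this, with a median of 68 bp for CpGs of a single library and 154 bp for those in 30 or more. In runs longer than 100 bp the level was 71.4% ± 17.5 (SD, n = 80) at CpGs of a single library, 68.5% ± 16.4 at 2 to 4 libraries (n = 92), 59.2% ± 17.0 at 5 to 9 (n = 92), 66.7% ± 7.28 at 10 to 29 (n = 94) and 80.4% ± 3.86 at 30 or more (n = 94). In these runs the 3 middle classes were thus below the single-library class. In runs of 100 bp or shorter the level was 31.0% ± 13.6 (n = 94), 37.3% ± 10.7 (n = 93), 40.6% ± 11.8 (n = 93), 40.99% ± 9.35 (n = 94) and 47.8% ± 7.48 (n = 94) from the fewest libraries to the most.

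Recurring CpGs mostly read at one end of the scale. Of the 2164, 596 (27.5%) had a mean of exactly 0 over all their libraries and 688 (31.8%) had a mean of exactly 100%. Whether the positions at 0 are CpGs in these larvae, and whether their reads were placed correctly, was not tested. A further 272 (12.6%) lay above 20% and up to 80%. The median of the SD between libraries was 0 percentage points, so at most positions the level was the same in library after library. Where 2 libraries of 1 group both had 1 read at the same CpG, the state was the same in 90.8% of 65765 such comparisons. For libraries of 2 different groups it was the same in 90.4% of 195230. At the methylated share of these same calls, 53.1% and 53.5% would match if states were unrelated. These comparisons share libraries and CpGs, and they are given as a description.

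**Figure D4:**
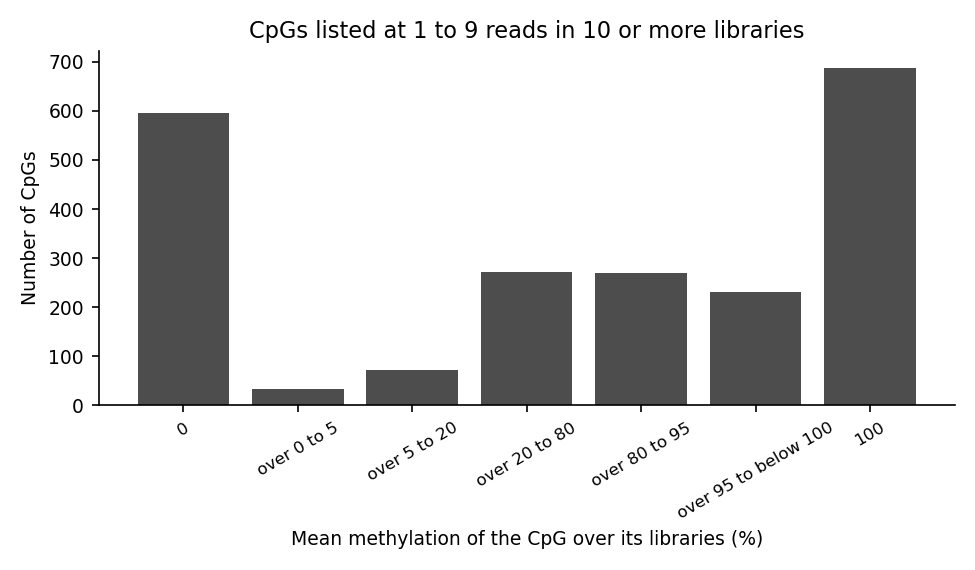
Number of CpGs by their mean methylation (%) over all libraries in which they had 1 to 9 reads, for the 2164 CpGs found in 10 or more libraries. The classes are unequal in width. The largest are the 688 CpGs at exactly 100% and the 596 CpGs at exactly 0.

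The low-depth level of a CpG was close to its level at greater depth in other libraries. Of the CpGs with 1 to 9 reads in at least 3 libraries, 2608 also had 10 or more reads in at least 1 library. They averaged 62.3% at low depth and 63.5% at 10 or more reads, and 89.6% of them differed by no more than 10 percentage points. Across these CpGs Pearson's r was 0.979 and Spearman's rho 0.889, and 15 CpGs differed by more than 50 points. These CpGs share libraries, and the correlation across them is a description.

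Reads at 1 CpG in 1 library tended to have the same state. At 2 reads, 59.4% of 15921 calls had both reads methylated, 33.7% had both unmethylated and 6.83% were mixed. At CpGs in 10 or more libraries with a mean of 20 to 80%, 34.7% of 1478 calls with 2 reads were mixed, against 43.5% if reads were independent draws at the mean of the CpG. At 5 reads 60.6% of 282 such calls were mixed, against 83.2%. Reads are PCR copies without molecular identifiers, and copies of 1 molecule cannot be told from separate molecules here. Neighbouring CpGs in a run, both at 1 read, had the same state in 80.8% of 14971 pairs 1 to 10 bp apart, against 50.04% for unrelated states at the methylated share of those pairs. The share was 80.6% at 11 to 20 bp, 73.3% at 21 to 40 bp, 67.5% at 41 to 60 bp, 69.8% at 61 to 80 bp, 81.9% in the 437 pairs at 81 to 100 bp and 49.2% in the 240 pairs farther apart. Unrelated states would give 51.4%, 52.7%, 53.9%, 53.3%, 61.3% and 53.0% at these distances. CpGs with more than 1 read that lay between the CpGs of a pair were passed over. The pairs share libraries and CpG positions, and these shares are given as a description. Among 12010 runs with 3 or more CpGs, 27.1% were methylated at every CpG and 19.1% were unmethylated at every CpG.

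The 10 CpGs listed in the most libraries all read at or near 0 or 100%. They do not stand for the recurring CpGs as a set, since most of them lay in 1 stretch of chromosome 18. Positions are counted from 1 in GRCz10, the build that the submitters' processing notes name. Genes are not named, since an annotation of GRCz10 was not used here. Position 25833974 on chromosome 13 (minus strand) had 306 of 306 reads methylated over 72 libraries. The reads were 74 in betamethasone-treated GR mutant, 64 in GR mutant control, 85 in betamethasone-treated wild-type and 83 in wild-type control larvae. Position 48114741 on chromosome 12 (plus strand) had 191 of 193 reads methylated over 72 libraries, a mean of 99.2% ± 4.88. Position 23588993 on chromosome 24 (plus strand) had 0 of 241 reads methylated over 70 libraries, which allows a level of up to 1.24% at a limit of 3 reads. Every group mean was at least 98.3% at the positions on chromosomes 12 and 13, and every group was at 0 on chromosome 24.

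The other 7 lay in 1 stretch of the plus strand of chromosome 18, from 44415311 to 44415443, and were listed in 71 libraries (the last of them in 70), 21 of betamethasone-treated GR mutant, 20 of GR mutant control, 14 of betamethasone-treated wild-type and 16 of wild-type control larvae. The 5 inner CpGs were methylated, from 96.0% ± 11.3 at 44415329 to 98.1% ± 9.57 at 44415412 (SD, n = 71), with 207 to 215 of 219 reads. The CpG at 44415311 was unmethylated in 219 of 219 reads of 71 libraries, and that at 44415443 in 214 of 214 reads of 70 libraries, which allow levels of up to 1.37% and 1.40%. In the 14 libraries with 10 or more reads, 44415311 stood at 0.00721% and 44415443 at 0. The 28 non-CpG cytosines of the stretch had 0.0653% of their reads methylated. Unmethylated and nearly fully methylated CpGs therefore stood 18 bp apart, at 44415311 and 44415329, in the same 71 libraries. Whether a CpG of the reference genome was present in these larvae at the positions that read 0 was not tested.

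Chromosomes differed in their mean level. A library entered a chromosome's mean with at least 5 scattered CpGs there. The highest chromosome levels were 72.2% ± 12.0 (SD, n = 91) on chromosome 24, 71.1% ± 15.7 (SD, n = 94) on chromosome 21 and 69.0% ± 15.7 (SD, n = 89) on chromosome 23. The lowest were 41.9% ± 14.8 (SD, n = 92) on chromosome 17, 48.7% ± 19.9 (SD, n = 87) on chromosome 10 and 48.9% ± 16.7 (SD, n = 93) on chromosome 15. The 10 CpGs with the most calls on a chromosome gave from 9.26% (chromosome 4) to 21.3% (chromosome 24) of its calls. CpGs of 10 or more libraries gave from 49.4% (chromosome 22) to 69.2% (chromosome 25). The chromosome means thus rest in part on the same CpGs in many libraries, and differences between chromosomes were not tested. The SD of the 25 chromosome means was 7.91 percentage points, and single library values within a chromosome, some from as few as 5 CpGs, had a median SD of 14.8. Chromosomes with more of their calls in runs of 100 bp or shorter had lower levels, with Pearson's r of -0.503 and Spearman's rho of -0.535 over 25 chromosomes that share libraries. In runs longer than 100 bp the chromosome means spread from 56.1% ± 22.6 (SD, n = 75) on chromosome 17 to 88.6% ± 9.95 (SD, n = 86) on chromosome 1. Chromosome 1 was 13th of 25 by its level over all runs, at 59.5% ± 18.9 (SD, n = 93).

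The group comparison asked whether genotype or betamethasone went with a difference in the scattered CpG level of a library. The level was highest in betamethasone-treated GR mutant larvae. Libraries ran from 56.3% to 76.7% (median 64.2%) in betamethasone-treated GR mutants, from 44.0% to 73.3% (median 59.9%) in GR mutant controls, from 44.0% to 71.4% (median 59.1%) in betamethasone-treated wild type and from 33.3% to 77.8% (median 57.8%) in wild-type controls. All 4 groups overlapped. With betamethasone, GR mutants averaged 64.7% ± 5.15 (SD, n = 23), against 58.6% ± 7.97 (SD, n = 24) in GR mutant controls. The difference was 6.04 percentage points (SE 1.95, adjusted p = 0.00750), with 18 of 23 libraries above the control median. Against betamethasone-treated wild type, at 59.1% ± 6.98 (SD, n = 23), the betamethasone-treated GR mutants were higher by 5.57 points (SE 1.81, adjusted p = 0.00750, 18 of 23 above the median). In wild type, betamethasone larvae at 59.1% ± 6.98 and controls at 57.1% ± 9.48 (SD, n = 24) differed by 1.98 points (SE 2.42, adjusted p = 0.555). GR mutant controls and wild-type controls differed by 1.51 points (SE 2.53, adjusted p = 0.555). The interaction, the betamethasone difference in GR mutants minus that in wild type, was 4.06 points (SE 3.11, p = 0.195, n = 94). With libraries of 4 neighbouring replicate numbers averaged, 6 values a group, the exact permutation test no longer passed for betamethasone in GR mutants (5.72, adjusted p = 0.130) or between the betamethasone-treated groups (5.09, adjusted p = 0.130). Libraries of 1 group with neighbouring numbers shared 17.9% of their scattered CpGs, against 14.8% for other pairs of a group. The interaction p-value is from a two-sided permutation of residuals of the additive fit of genotype and treatment. Apart from it and the exact test, the p-values of this paragraph are from two-sided permutation tests of library means. Nothing in the labels ties libraries to separate clutches, so they measure the spread between libraries.

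The groups also differed in which CpGs their libraries held. Runs of 100 bp or shorter held 32.8% ± 7.48 of the CpG calls in betamethasone-treated GR mutants, 42.7% ± 12.5 in GR mutant controls, 36.6% ± 9.26 in betamethasone-treated wild type and 44.5% ± 12.6 in wild-type controls. CpGs found in 10 or more libraries made up 74.1% ± 10.3 of the calls in betamethasone-treated GR mutants, 61.8% ± 12.7 in GR mutant controls, 63.0% ± 10.2 in betamethasone-treated wild type and 64.4% ± 16.0 in wild-type controls. Across the 94 libraries the level went with the median run length of the CpG calls (Pearson's r = 0.700, Spearman's rho = 0.643, each with adjusted p = 2e-05 by permutation over 4 relations). Without the 2 libraries farthest from the median run length r was 0.668. Within groups r was 0.665 in betamethasone-treated GR mutants, 0.843 in GR mutant controls, 0.211 in betamethasone-treated wild type and 0.870 in wild-type controls. The number of scattered CpG calls averaged 841 ± 286 in betamethasone-treated GR mutants, 1142 ± 480 in GR mutant controls, 1069 ± 445 in betamethasone-treated wild type and 1064 ± 535 in wild-type controls. Libraries with more scattered CpGs had lower levels (r = -0.600, rho = -0.582, each with adjusted p = 2e-05), with r from -0.661 to -0.479 within groups and -0.575 without the 2 farthest libraries. The relation to the non-CpG level inside the amplicons did not pass (r = -0.112, rho = -0.0978, permutation adjusted p = 0.285 and 0.350). For the summed reads of a library r was -0.144 (permutation adjusted p = 0.223) and rho was -0.219 (0.0452).

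The size of the betamethasone difference in GR mutants varied with the CpGs compared and with the measure. With the CpGs of 10 or more libraries left out it was 8.07 (permutation adjusted p = 0.00754), and the difference from betamethasone-treated wild type was 9.19 (permutation adjusted p = 0.00754). At the CpGs of 10 or more libraries, most of them at or near 0 or 100%, the difference did not pass on another measure. Each call there was set against the mean of that CpG over all libraries. This takes out differences in which of these CpGs a library held. The measure was chosen after the data were seen, and the plain level at these CpGs was not tested. Betamethasone-treated GR mutants then stood at 0.0751 ± 2.15 percentage points (SD, n = 23) and GR mutant controls at 0.634 ± 1.51 (SD, n = 24), a difference of -0.559 (SE 0.543, permutation adjusted p = 0.608). The difference from betamethasone-treated wild type was 0.0644 (SE 0.574, permutation adjusted p = 0.911). At the 1028 CpGs with at least 5 libraries in both GR mutant groups, the mean was 69.9% with betamethasone and 70.3% in controls, the median difference was 0 and 70.9% of the CpGs were within 5 points. In runs longer than 100 bp, also chosen later, betamethasone-treated GR mutants were at 74.7% ± 4.89 and GR mutant controls at 74.1% ± 5.93, a difference of 0.614 (SE 1.58, permutation adjusted p = 0.700). Against betamethasone-treated wild type, at 70.0% ± 8.26, they were higher in these runs by 4.76 (SE 2.00, permutation adjusted p = 0.0403). In runs of 100 bp or shorter betamethasone-treated GR mutants were at 43.9% ± 5.09 and GR mutant controls at 39.0% ± 6.08, a difference of 4.91 (SE 1.63, permutation adjusted p = 0.0173). Against betamethasone-treated wild type, at 40.9% ± 6.51, the difference in these runs was 2.97 (SE 1.72, permutation adjusted p = 0.122). Over 16 alternatives the betamethasone difference in GR mutants ran from -0.559 to 8.65, with permutation adjusted p from 0.00052 to 0.700. Against betamethasone-treated wild type it ran from 0.0644 to 9.19, with permutation adjusted p from 0.00060 to 0.911.

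In wild type the run classes went in opposite directions. These classes were chosen after the data were seen, and the p-values were not adjusted for that choice. In runs longer than 100 bp betamethasone larvae were at 70.0% ± 8.26 (SD, n = 23) and controls at 74.9% ± 5.22 (SD, n = 24), a difference of -4.96 (SE 2.03, permutation adjusted p = 0.0403, below the control median in 17 of 23). In runs of 100 bp or shorter they were at 40.9% ± 6.51 and 36.2% ± 7.65, a difference of 4.79 (SE 2.07, permutation adjusted p = 0.0495). At the 1063 CpGs with at least 5 libraries in both wild-type groups the means were 68.2% with betamethasone and 68.3% in controls, and the position-centred difference was 0.135 (SE 0.469, permutation adjusted p = 0.911). Over 16 alternatives the wild-type difference ran from -4.96 to 8.11, with permutation adjusted p from 0.0403 to 0.911.

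By chromosome, 5 of 25 chromosomes (20%) passed for betamethasone in GR mutants, all of them with the higher level under betamethasone. The unadjusted permutation p was below 0.05 on 9 (36%). They were chromosome 1 with 72.3% ± 14.7 in betamethasone-treated (n = 22) and 55.1% ± 20.2 in control GR mutants (n = 24, adjusted p = 0.0116), chromosome 9 with 72.8% ± 6.70 and 62.4% ± 9.30 (adjusted p = 0.00212), chromosome 13 with 70.4% ± 11.3 and 60.8% ± 12.0 (0.0378), chromosome 20 with 72.3% ± 13.1 and 59.3% ± 11.4 (0.00792) and chromosome 23 with 79.2% ± 10.7 and 65.1% ± 12.0 (0.00212). The group mean was higher with betamethasone on 24 of 25 chromosomes. The exception was chromosome 15 (42.7% against 53.2%, permutation p = 0.0237, adjusted p = 0.0846). Betamethasone-treated wild type was above its control on 17 chromosomes, and GR mutant controls above wild-type controls on 17. Betamethasone-treated GR mutants were above betamethasone-treated wild type on 22. The chromosomes share libraries, and the GR mutant groups differed by 6.04 points over all scattered CpGs, so the 24 restates part of that difference. Between betamethasone-treated GR mutants and betamethasone-treated wild type 4 of 25 (16%) passed, and 7 (28%) had an unadjusted permutation p below 0.05. The higher direction made up 12%, as chromosomes 1, 4 and 9 were higher in GR mutants, by 13.5, 11.2 and 8.00 points (permutation adjusted p = 0.0433, 0.0212 and 0.0302). Chromosome 15 was lower, at 42.7% ± 12.7 in GR mutants (n = 22) and 55.9% ± 13.2 in wild type (n = 23), a difference of -13.2 (permutation adjusted p = 0.0212). For betamethasone in wild type and for the genotypes without betamethasone 0 of 25 (0%) passed by the permutation test, with 4 (16%) and 0 (0%) unadjusted p-values below 0.05. Position-centred, 0 of 25 chromosomes passed in each of the 4 comparisons. Unadjusted permutation p-values below 0.05 numbered 2 for betamethasone in GR mutants and 1 between the betamethasone-treated groups. They numbered 2 between the control groups and 0 for betamethasone in wild type.

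**Figure D5:**
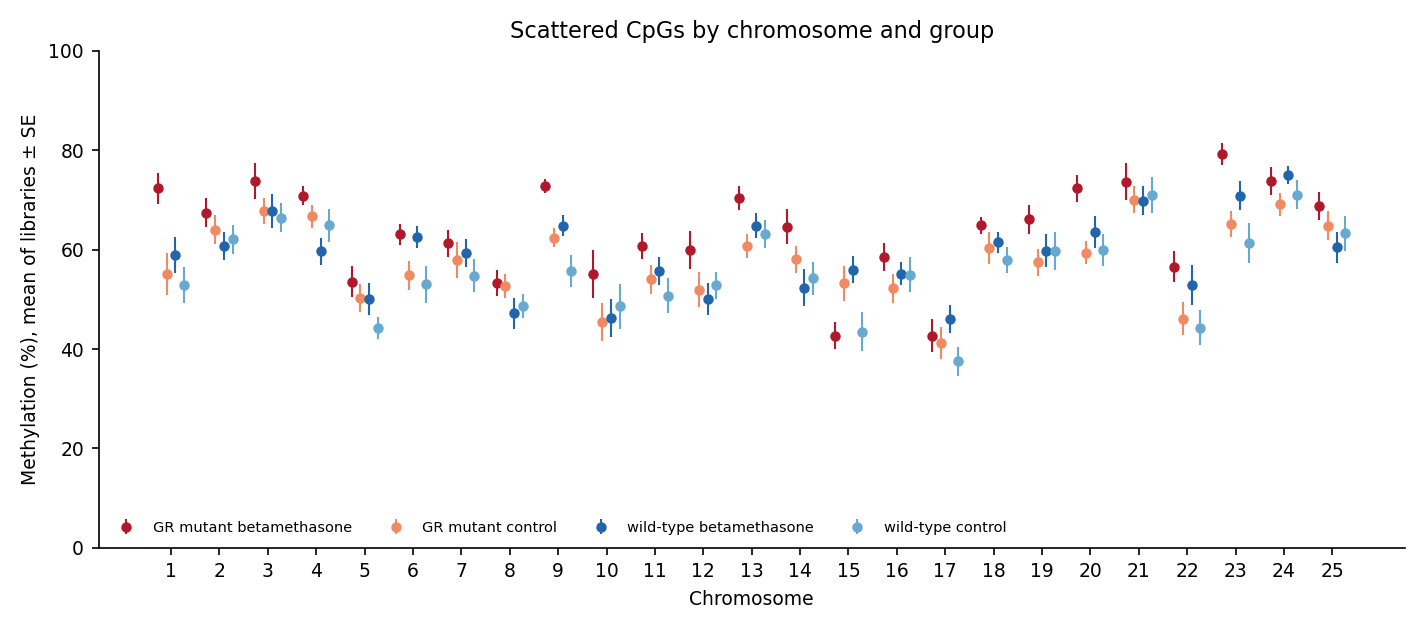
Methylation (%) of scattered CpGs on each of the 25 chromosomes in the 4 groups. Points are means of library levels and bars are standard errors over libraries. Betamethasone-treated GR mutants lie above GR mutant controls on 24 of 25 chromosomes, which share libraries, and chromosome 17 is the lowest over all libraries at 41.9%.

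The non-CpG level of scattered cytosines was lower in betamethasone-treated wild type than in wild-type controls. It was 2.66% ± 0.604 (SD, n = 23) with betamethasone and 3.51% ± 1.22 (SD, n = 24) in controls, a difference of -0.847 points (SE 0.278, permutation adjusted p = 0.0124), with 20 of 23 libraries below the control median. In GR mutants it was 2.81% ± 1.14 (SD, n = 23) with betamethasone and 3.29% ± 1.16 (SD, n = 24) in controls, a difference of -0.487 (SE 0.336, permutation adjusted p = 0.313). The 2 comparisons of genotypes did not pass (0.142 with and -0.218 without betamethasone, permutation adjusted p = 0.672 each), nor did the interaction (0.360, SE 0.436, permutation p = 0.413). Inside the amplicons the non-CpG level went the other way. In wild type it was 1.77% ± 0.409 with betamethasone and 1.51% ± 0.356 in controls. In GR mutants it was 1.41% ± 0.374 with betamethasone and 1.15% ± 0.376 in controls. Group differences inside the amplicons were not tested. Runs with a non-CpG level above 20% numbered 43.0 ± 33.3 per library in betamethasone-treated GR mutants, 65.3 ± 37.7 in GR mutant controls, 43.4 ± 28.9 in betamethasone-treated wild type and 70.0 ± 44.4 in wild-type controls. With them left out, a filter on the compared level itself, the wild-type difference was -0.106 (permutation adjusted p = 0.372), and over 16 alternatives it ran from -2.44 to -0.0382 with permutation adjusted p from 0.00104 to 0.781.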

How the data were processed

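Heads of zebrafish larvae were studied by bisulfite amplicon sequencing with 100 pg of converted DNA in a first PCR of 40 cycles and reads of 150 bp in pairs, per the labels' protocols. FastQC, cutadapt and BS-Seeker2 with build GRCz10 are named in the submitters' processing notes; versions and settings were not given in the sources used here. For each cytosine of a library the authors deposited a methylation fraction and counts of methylated and of all reads. The fraction differed from the count ratio by more than rounding at 0 cytosines, and the counts were used. The 5 rows without a context were left out.

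Each scattered cytosine entered once per library, and libraries with at least 100 scattered CpGs entered the tests. Runs join scattered cytosines (1 to 9 reads) of 1 strand no more than 100 bp apart, and deeper cytosines do not enter them. Amplicon non-CpG levels use cytosines over 30 bp from an amplicon end with at least 30 reads. Tests are two-sided permutation tests with 100000 resamples, adjusted by Benjamini-Hochberg over the 4 pairs of groups, the 3 within-library comparisons or the 25 chromosomes; the interaction permutes residuals of the additive fit. The permutation test of 2 groups and the interaction test were tried on simulated libraries with independent, normally distributed values. The sign-flip test and the exact test of averaged replicate numbers were not. The members, lists and tests were chosen with earlier results of these data known. Named were the 10 CpGs in the most libraries, the 3 highest and 3 lowest chromosomes with those that passed, and the 2 highest and 2 lowest libraries. Intervals and limits from reads cover counting error only, as PCR copies are not independent molecules. The work used scipy 1.17.1, numpy 2.4.6 and pandas 2.3.3 under Python 3.11.15, with figures by matplotlib 3.10.9.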

Additional observations from a re-analysis of the deposited data

How the results depend on the processing

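Differences are in percentage points with permutation adjusted p-values. The interaction values are the exception, as their permutation p-values are unadjusted. The alternatives were a minimum of 30 or 300 calls, 1 read or 2 to 9 reads, 10 kb from the amplicons, summed reads, runs counted once, CpGs of 10 or more libraries left out, runs above 20% non-CpG left out, libraries above 2% amplicon non-CpG left out, the replicate block and averages of 4 neighbouring replicate numbers. Chosen after seeing the data were runs longer than 100 bp, runs of 100 bp or shorter, position-centred calls and CpGs of a single library. In every case not named here a difference kept its direction and its side of the threshold.

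For betamethasone in GR mutants the CpG difference of 6.04 was -0.559 (0.608) position-centred, 0.614 (0.700) in runs longer than 100 bp, 8.65 (0.134) at CpGs of a single library and 5.72 (0.130) with numbers averaged. Between the betamethasone-treated groups the 5.57 was 0.0644 (0.911) position-centred, 3.26 (0.517) at CpGs of a single library, 2.97 (0.122) in runs of 100 bp or shorter, 4.76 (0.0643) at 1 read and 5.09 (0.130) with numbers averaged. For betamethasone in wild type the 1.98 was -4.96 (0.0403) in runs longer than 100 bp, 4.79 (0.0495) in shorter ones, -1.20 (0.857) at 2 to 9 reads and -1.15 (0.849) with summed reads. GR mutant controls minus wild-type controls was -0.811 (0.700) in runs longer than 100 bp. The interaction was -0.694 (0.330) position-centred, 6.92 (0.0251) with summed reads and 5.57 (0.0309) in runs longer than 100 bp.

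For non-CpG cytosines the wild-type difference of -0.847 was -0.586 (0.144) without libraries above 2% amplicon non-CpG, -0.0728 (0.0670) position-centred, -2.44 (0.0864) at positions of a single library, -0.106 (0.372) without runs above 20% and -0.0382 (0.781) in runs longer than 100 bp. In GR mutants the -0.487 was 0.0294 (0.278) position-centred, 0.0646 (0.408) without runs above 20% and 0.197 (0.00314) in runs longer than 100 bp. Between the betamethasone-treated groups the 0.142 was -0.0110 (0.974) at 1 read. GR mutant controls minus wild-type controls was -0.224 (0.00216) in runs longer than 100 bp, and the interaction was 0.102 (0.0176) position-centred and 0.235 (0.0106) in runs longer than 100 bp. Scattered minus amplicon non-CpG was -0.00480 (0.911) without runs above 20%, a filter on the compared level that had to lower it.

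The 5 chromosomes called for betamethasone in GR mutants became 10 with runs counted once, 2 at 1 read and with summed reads, 1 in runs of 100 bp or shorter, and 0 at 2 to 9 reads, position-centred, without CpGs of 10 or more libraries, in runs longer than 100 bp and with numbers averaged. The 4 between betamethasone-treated groups became 0 at 1 read, at 2 to 9 reads, position-centred, without CpGs of 10 or more libraries, with runs counted once, in runs of either length class and with numbers averaged. The 0 for betamethasone in wild type became 3 without CpGs of 10 or more libraries and 1 in runs of either length class, and the 0 between controls became 1 without CpGs of 10 or more libraries. With numbers averaged, the exact test cannot go below 0.00216. At CpGs of a single library, chromosome counts could not be made in both GR mutant betamethasone comparisons.

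With the replicate block, the number shared by libraries of different groups, no call changed. The CpG differences were 6.11 (0.00728) for betamethasone in GR mutants and 5.95 (0.00728) between the betamethasone-treated groups. They were 1.51 (0.523) between the control groups and 1.82 (0.523) for betamethasone in wild type. The numbers are not stated to mark a shared clutch. Same-numbered libraries had chromosome deviations correlated above 0.1 in 5 of 23 to 10 of 23 pairs. These correlations rest on few CpGs per chromosome, so they cannot show whether such libraries share a clutch or a batch. The depth of 1 to 9 reads limits single calls to coarse fractions, and a library level is the mean over 303 or more CpGs. CpGs of 1 run often had the same state and are not independent. The library with the fewest runs held 172, with or without a CpG.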

Other observations

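Chromosome 4, whose long arm is known in zebrafish as gene-poor heterochromatin, held the most scattered CpG calls. It gave 7200 of the 96866 calls of the 94 libraries, at 1635 distinct CpGs. Its level was 19.3% ± 21.6 (SD, n = 59) in the first 10 Mb, 50.2% ± 23.4 (SD, n = 46) from 10 Mb, 50.5% ± 34.1 (SD, n = 27) from 20 Mb, 68.5% ± 22.7 (SD, n = 38) from 30 Mb, 78.5% ± 14.7 (SD, n = 89) from 40 Mb, 73.2% ± 27.3 (SD, n = 66) from 50 Mb, 61.6% ± 20.5 (SD, n = 64) from 60 Mb and 71.1% ± 22.9 (SD, n = 51) from 70 Mb, over libraries with at least 5 calls in the window. These windows, each with 103 to 353 distinct CpGs, were chosen after the data were seen and were not tested. The number of calls on chromosome 4 was not set against its length or CpG content.

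CpGs on unplaced scaffolds were outside the rule. At 1 to 9 reads they gave 2027 calls at 583 CpGs of 164 scaffolds. Over libraries with at least 20 such calls the level was 60.6% ± 12.1 (SD, n = 11) in betamethasone-treated GR mutants, 56.6% ± 16.4 (SD, n = 11) in GR mutant controls, 59.9% ± 17.6 (SD, n = 9) in betamethasone-treated wild type and 48.9% ± 20.8 (SD, n = 11) in wild-type controls. The betamethasone difference was 4.03 in GR mutants (permutation p = 0.521) and 11.0 in wild type (permutation p = 0.221).

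Libraries of 1 group with neighbouring replicate numbers shared a mean of 17.9% of their scattered CpGs (88 pairs), against 14.8% for other pairs of a group (970 pairs), 14.8% for same-numbered libraries of different groups (138 pairs) and 14.3% for the remaining pairs across groups (3175 pairs). CpGs of the plus strand averaged 62.6% ± 8.34 and those of the minus strand 57.5% ± 8.27 (SD, n = 94).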
